A study of Mus musculus with 12 samples.

Results

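Among the tRNA fragments of mouse sperm there are 8 scarce families, with 56 of the 2971 sequences in the deposited table, and they include the fragments of Val-TAC and Ser-GCT. Members were chosen by a rule that uses measured values. All sequences were sorted by their mean normalised level over 12 libraries, and each joined the family of the nearest more abundant sequence within 2 edits or founded its own. The families with a summed mean under 500 RPM (reads scaled to equal library totals) were then taken, and a Gly-CCC family of 14 sequences at 285.3 RPM was left out. Of 19 families, the 8 that qualified had summed means from 15.9 to 434.5 RPM, and the next family above the threshold was at 731.9 RPM. Together they held 1479 RPM on average, which was 0.151% of the tabulated reads.

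The libraries came from histone replacement-completed sperm (HRCS), the sperm in which protamines have taken the place of histones, gathered by an 82% Percoll step after sonication had parted heads from tails. Males were wild type or carried 1 functional copy of Atf7 (ATF7+/-), a gene for a stress-responsive transcription factor, and in each genotype males ate control diet or a low protein diet between weeks 3 and 12 of life. The 4 groups (wild type on control diet, wild type on low protein diet, heterozygous on control diet, heterozygous on low protein diet) had 3 libraries each, while the strain, how the allele was made and how many males went into a library are not stated in the labels. The labels do not say that libraries came from separate males, so p-values measure the spread between these libraries, which may be technical. The table lists tRNA fragments alone, so the sperm label could not be checked against marker genes.

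Transfer RNAs carry amino acids to the ribosome, where the anticodon, near the middle of the molecule, reads the codon. In mature sperm much of the small RNA consists of 5′ fragments of tRNAs, which run from the first base to a cleavage in or near the anticodon loop, and in mice they are known to be gained as sperm pass through the epididymis. A T at position 8 of the tRNA gene is conserved in nearly all tRNAs and serves as a landmark for the first base.

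The most abundant sequence of each family shows which tRNA it came from and where it starts, with the T of position 8 in capitals. Val-TAC was named by the anticodon inside its longest fragment and Ser-GCT by a match to an annotated gene. The other names follow general knowledge of tRNA sequences (leucine, selenocysteine, threonine, initiator methionine, cysteine and alanine) and were not matched to a reference here, hence "type". Members are numbered by abundance within their family.
Leu-type 1: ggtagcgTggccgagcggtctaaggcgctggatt
Val-TAC 1: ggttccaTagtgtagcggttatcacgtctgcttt
Sec-type 1: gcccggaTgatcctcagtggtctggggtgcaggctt
Thr-type 1: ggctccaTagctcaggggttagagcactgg
Ser-GCT 1: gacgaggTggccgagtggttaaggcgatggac
iMet-type 1: agcagagTggcgcagcggaagcgtgctggg
Cys-type 1: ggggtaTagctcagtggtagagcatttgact
Ala-type 1: ggggatgTagctcagtggtagagcgca

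In 7 of these 8 sequences the T lies at the eighth base, so that they start at the first base of the tRNA, while Cys-type 1 lacks 1 base at its start. Members ran from 27 to 36 nt. By this landmark 40 of the 56 members start at the first base, 15 start later (trimmed, 4 of them Cys-type) and 1 starts earlier. All 56 had a mean of at least 1 RPM, which was the minimum for testing, and 33 reached 10 RPM.

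The fragments that define the 3′ ends are shown next, with the anticodon bases they reach in capitals for Val-TAC and iMet-type. For Ser-GCT the first 45 bases of the gene are shown with the anticodon in capitals. These set the positions at which the fragments end.
Val-TAC 8: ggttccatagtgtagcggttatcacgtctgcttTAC
Val-TAC 1, first anticodon base: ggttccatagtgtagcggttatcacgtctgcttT
Val-TAC 5: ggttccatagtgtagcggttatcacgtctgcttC
Ser-GCT gene n-TSgct5: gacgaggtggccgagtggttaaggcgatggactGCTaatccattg
iMet-type 3: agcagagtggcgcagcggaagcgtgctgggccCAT

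The Val-TAC family summed to 377.4 RPM on average over 12 sequences of 28 to 36 nt, and 10 of them start at the first base. Valine tRNA with this anticodon reads the codon GTA, and RefSeq (GRCm38.p6) annotates 3 such nuclear genes in mouse, n-TVtac1 at chr19:12011931-12012003, n-TVtac2 at chr19:12012266-12012338 and n-TVtac3 at chrX:160766110-160766182. Without the gene sequences, fragments were not assigned to one of these 3. The 3′ ends fell mainly at 2 places. Sequences of 34 nt made up 45% of the family and sequences of 30 nt made up 34.8%. Val-TAC 1, the 34-nt form at 155.2 RPM, ends on the first anticodon base, position 34. Val-TAC 2, the 30-nt form, was at 121.3 RPM and ends 3 bases short of the anticodon. Val-TAC 8 at 8.15 RPM was the only member that holds the whole anticodon TAC, at positions 34 to 36.

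The other Val-TAC sequences were much scarcer, with means from 3.99 to 24.2 RPM. Val-TAC 3 (31 nt) was at 24.2 RPM, Val-TAC 7 (29 nt) at 9.51 RPM, Val-TAC 9 (32 nt) at 5.67 RPM and Val-TAC 11 (28 nt) at 4.19 RPM. Val-TAC 4 and Val-TAC 12 lack 1 and 2 bases at the start and end at position 34 as Val-TAC 1 does, at 15.4 and 3.99 RPM. Substitutions, counted from the first base of the most abundant sequence, lay on the last base of 3 members. They were T34C in Val-TAC 5 (14.7 RPM), G30A in Val-TAC 6 (10.2 RPM) and C31T in Val-TAC 10 (4.81 RPM). Of the reads that reach position 34, 7.44% had C there, from 5.48 to 9.35% in the 12 libraries, and C is the first anticodon base of Val-CAC. T34C was the only difference of Val-TAC 5 from Val-TAC 1. A last-base T34C was not particular to this family. Leu-type reads had C at position 34 in 6.72%, from 5.08 to 10.8% in the libraries.

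The abundant relative called Val-CAC here was named by its first bases from general knowledge of tRNA sequences and was not matched to a reference. Its most abundant sequence ends before the anticodon, so that sequence does not show which anticodon its tRNA carries. It is given with its differences from Val-TAC 1 in capitals.
Val-CAC 1: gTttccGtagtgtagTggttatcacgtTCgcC

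Over these 32 bases the substitutions from Val-TAC 1 were G2T, A7G, C16T, C28T, T29C and T32C. The Val-CAC family held 185 sequences and 20614 RPM on average. Per 100 Val-CAC reads there were 1.48 to 2.37 Val-TAC reads in the 12 libraries. In the low protein groups this ratio was 1.97 ± 0.212% for wild type and 1.86 ± 0.202% for heterozygotes (SD, n = 3 each), and the exact permutation test gave p = 0.600 (two-sided, where 3 against 3 libraries cannot go below 0.1). In the control-diet groups it was 1.60 ± 0.170% and 2.02 ± 0.314% (SD, n = 3 each), with an exact permutation p of 0.200. Over both diets the genotypes gave 1.78 ± 0.267% and 1.94 ± 0.252% (SD, n = 6 each), with an exact permutation p of 0.365. The ends differed as well. In Val-CAC the most frequent length was 32 nt, with 44.7% of the reads, and only 2.76% were 34 nt.

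Val-TAC totals by library were 331.7, 361.9 and 328.7 RPM in wild type on control diet and 300.1, 335.1 and 363.9 RPM in wild type on low protein diet. Heterozygous libraries had 481.4, 368.9 and 358.8 RPM when fed control diet and 414.0, 454.6 and 429.3 RPM when fed the low protein diet. The 3 heterozygous libraries on low protein diet lay above all 6 wild-type libraries, and on control diet the genotypes overlapped. On low protein diet Val-CAC split the genotypes likewise, with 21868 to 25540 RPM across heterozygous libraries against 15894 to 17541 RPM across wild-type ones. Its control-diet libraries overlapped, with means of 21549 RPM (wild type) and 20561 RPM (heterozygous). The low protein split was thus not particular to Val-TAC. Over both diets the Val-TAC family was higher in heterozygotes by 0.31 on the log2 scale (SE 0.14). This missed the threshold of 0.05 (edgeR quasi-likelihood, Benjamini-Hochberg adjusted p = 0.170 over 19 families). The exact permutation p for the same comparison was 0.010, with an adjusted value of 0.570 over the 114 tests of family totals. In low protein males the genotypes differed by 0.38 (SE 0.19, adjusted p = 0.256 by edgeR). With TMM factors, another scaling, the family total passed in both comparisons, at 0.56 (adjusted p = 0.0471) on low protein diet and 0.43 (adjusted p = 0.0382) over both diets, and with DESeq2 at 0.41 (adjusted p = 0.0356) and 0.37 (adjusted p = 0.00928).

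The 2 main ends of Val-TAC were set side by side. Val-TAC reads ending at position 34 were, for low protein males, at 162.8 ± 9.06 RPM with wild-type Atf7 and 233.1 ± 6.51 RPM in heterozygotes (SD, n = 3 each), without overlap. Reads ending at position 30 were at 122.4 ± 14.6 RPM and 139.3 ± 12.4 RPM in the same groups (SD, n = 3 each), with overlap. The ratio of the ends was 133.7 ± 8.79 per 100 in wild type and 168.1 ± 13.1 per 100 in heterozygotes on low protein diet (SD, n = 3 each). These values did not overlap, and the exact permutation p was 0.1, the smallest this design allows, with an adjusted value of 0.600 over 78 tests of ratios, ends and shares. The control-diet ratios were 150.6 ± 50.5 for wild type and 132.2 ± 24.3 for heterozygotes (SD, n = 3 each), in the other direction and with overlap. For Val-TAC 1 itself the genotype difference on low protein diet was 0.55 on the log2 scale (SE 0.20), with an adjusted p of 0.197 over all 2971 sequences by edgeR. For Val-TAC 2 it was 0.14 (SE 0.22, adjusted p = 0.793 by edgeR).

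Ser-GCT fragments were fewer, 74.1 RPM on average over 3 sequences that share their start and differ only in length. Serine tRNA with anticodon GCT reads the codons AGC and AGT and has a long variable arm. The fragments match n-TSgct5, at chr13:22050686-22050767 on the minus strand (GRCm38), where they lie antisense to the only exon of the annotated transcript of Gm48356, a gene model without a name of its own. RefSeq annotates 8 Ser-GCT genes, so the fragments need not come from this one. The anticodon of the gene is at positions 34 to 36. Ser-GCT 2, of 33 nt at 21.1 RPM, ends directly before the anticodon and spans chr13:22050735-22050767. Ser-GCT 1, of 32 nt, was the most abundant at 44.3 RPM, and Ser-GCT 3, of 31 nt, was at 8.73 RPM. None of the 3 is trimmed.

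Ser-GCT took a smaller share of the reads in heterozygous than in wild-type libraries in the fit over both diets, and the levels in heterozygotes were close together. RPM is relative to the library total, of which the tabulated tRNA fragments made up 97.5 to 98.2%, so amounts per sperm were not measured. Totals in heterozygotes were 49.3, 58.7 and 52.8 RPM for control diet and 61.5, 52.7 and 59.5 RPM for low protein diet. Wild-type totals were 37.7, 76.9 and 111.7 RPM for control diet and 103.6, 123.2 and 101.6 RPM for low protein diet. The low protein genotypes did not overlap, whereas on control diet wild-type replicate 1 was below all heterozygous libraries and the other two wild-type libraries were above them. Library totals differed too. The heterozygous libraries on low protein diet had 4828916 to 6870039 reads and the wild-type ones 2278880 to 2874170, so depth and genotype cannot be told apart there, while on control diet the totals overlapped (2198744 to 5581994 and 2365173 to 3927919). Counts behind the Ser-GCT total ran from 116 to 402 reads per library.

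Over both diets the Ser-GCT total was lower in heterozygotes by a log2 fold change of -0.70 (SE 0.20, 1.63-fold, adjusted p = 0.0234 by edgeR), from 92.4 ± 30.9 to 55.7 ± 4.83 RPM (SD, n = 6 each). This was 1 of 2 families called among 19 (10.5%), and the other was outside these 8. The exact permutation test gave p = 0.020 and an adjusted value of 0.570 over the 114 tests. Within the low protein groups the value was -0.92 (SE 0.29, adjusted p = 0.0407 by edgeR), again 1 of 2 families called among 19 (10.5%). For the control-diet groups it was -0.49 (SE 0.29, adjusted p = 0.571 by edgeR), and the interaction of diet and genotype was -0.43 (SE 0.40, adjusted p = 0.830), so a difference between the diets was not shown. The call over both diets was lost without wild-type control-diet replicate 3 (-0.50, adjusted p = 0.113), heterozygous control-diet replicate 1 or 2 (adjusted p = 0.0523 and 0.0537), heterozygous low protein replicate 2 (adjusted p = 0.0695) or wild-type low protein replicate 2 (adjusted p = 0.0655), all by edgeR, and with TMM factors (-0.58, adjusted p = 0.0841). The low protein call was lost without any 1 of the 6 low protein libraries or heterozygous control-diet replicate 2 (adjusted p from 0.0640 to 0.172), and with TMM factors (-0.75, adjusted p = 0.0943). That scaling moved the 8 families by a median of 0.12 over both diets and 0.17 on low protein diet, on the log2 scale. With limma the adjusted p was 0.0593 over both diets and 0.0542 on low protein diet.

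All 3 Ser-GCT lengths had lower means in heterozygotes, though none passed over all 2971 sequences. Ser-GCT 3 was at 14.9, 13.9 and 16.5 RPM in the wild-type low protein libraries and at 6.01, 7.42 and 5.33 RPM in the heterozygous ones, with no overlap. The control-diet libraries had 5.60, 9.72 and 9.28 RPM (wild type) and 5.02, 4.72 and 6.37 RPM (heterozygous). For low protein males the genotypes differed by -1.27 on the log2 scale (SE 0.28, adjusted p = 0.0923 by edgeR), the smallest p of any rare-family sequence in that comparison. For Ser-GCT 1 the value was -0.82 (SE 0.31, adjusted p = 0.202) and for Ser-GCT 2 -0.97 (SE 0.43, adjusted p = 0.267), both by edgeR. In wild type alone Ser-GCT 3 differed between the diets by 0.90 (SE 0.28, adjusted p = 0.0864 by edgeR), which did not pass. The values for the genotype on low protein diet and for diet in wild type share the wild-type low protein libraries.

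The sequence bases of the third-ranking family are those of selenocysteine tRNA, the tRNA that places selenocysteine at UGA codons in selenoproteins, among them the peroxidase GPX4 of the sperm midpiece. Its 7 sequences summed to 293.4 RPM, and Sec-type 1 took 73.5% of that. Sec-type 1 is 36 nt, which is the read length of the run, and 84.4% of the family's reads had this length, against 0.379% of all reads in the table. Ends of any longer fragments are not seen in the table, whose longest sequences are of this length. Totals by library were 291.2, 334.9 and 360.5 RPM in wild type on control diet and 381.3, 256.1 and 399.6 RPM on low protein diet. Heterozygotes had 273.2, 236.7 and 286.1 RPM with control diet and 235.9, 228.2 and 237.1 RPM with low protein diet. On each diet every heterozygous library lay below every wild-type library.

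The Sec-type total was lower in heterozygotes over both diets by a log2 fold change of -0.44 (SE 0.15), and the adjusted p of 0.0518 by edgeR just missed the threshold. The means were 337.3 ± 54.9 and 249.5 ± 23.9 RPM (SD, n = 6 each). By the exact permutation test p was 0.005, the smallest the rearrangements within diets can give, with an adjusted value of 0.570 over 114 tests. DESeq2 called the family (-0.37, adjusted p = 0.0434), and so did edgeR without wild-type low protein replicate 2 (-0.53, adjusted p = 0.0126), without wild-type control-diet replicate 1 (-0.48, adjusted p = 0.0300) and without heterozygous control-diet replicate 3 (-0.47, adjusted p = 0.0333). These were the only 3 of the 12 fits without 1 library that called it, and TMM factors and limma did not call it. For the genotype on low protein diet the value was -0.56 (SE 0.21, adjusted p = 0.0920) and on control diet -0.31 (SE 0.21, adjusted p = 0.571), both by edgeR. The low protein comparison passed with DESeq2 (-0.54, adjusted p = 0.0345). In edgeR it passed with only the low protein libraries in the fit (-0.56, adjusted p = 0.0184), with a replicate block in that fit (-0.54, adjusted p = 0.0423) and without wild-type low protein replicate 2 (-0.74, adjusted p = 0.0183). Leaving out replicates 1 and 2 of both control-diet groups also gave -0.56. That fit takes its spread from the same low protein libraries, so it is not a separate setting. Of the 12 fits without 1 library, only 1 called the low protein comparison. With TMM factors its value was -0.40 (adjusted p = 0.234).

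The diet comparisons turned on single scarce sequences rather than on families. Over both genotypes 4 of the 56 sequences passed, 1 higher and 3 lower on low protein diet, and 353 of all 2971 did (11.9%), so the share among the members was not above the background. The 4 are shown with the first base of the trimmed ones in capitals and, for Leu-type 12, positions 6 and 16 in capitals.
Sec-type 6: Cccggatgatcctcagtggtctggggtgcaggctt
Sec-type 5: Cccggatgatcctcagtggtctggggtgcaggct
Val-TAC 12: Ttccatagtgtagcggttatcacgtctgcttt
Leu-type 12: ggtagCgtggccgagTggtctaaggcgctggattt

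The 3 that fell are trimmed forms, starting 1 base (Sec-type 5 and 6) or 2 bases (Val-TAC 12) inside the tRNA. In control-diet libraries Sec-type 6 was at 26.0, 5.92 and 4.64 RPM (wild type) and 12.0, 8.49 and 2.73 RPM (heterozygous). In low protein libraries it was at 0.439, 2.78 and 2.17 RPM (wild type) and 3.93, 1.89 and 2.07 RPM (heterozygous). The diets differed by -2.19 on the log2 scale (SE 0.52, adjusted p = 0.0243 by edgeR). The highest levels were in replicate 1 of both control-diet groups, and the lowest control-diet library lay within the low protein range.

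Val-TAC 12 was at 16.3, 6.76 and 3.31 RPM in the wild-type control-diet libraries and 6.81, 4.34 and 2.27 RPM in the heterozygous ones. Fed low protein, wild-type replicate 1 had 0 counts, which allows up to 1.32 RPM (3 counts, counting error only), and the other wild-type libraries 2.44 and 1.30 RPM, beside 1.86, 0.728 and 1.78 RPM in the heterozygous ones. This was a log2 difference of -2.21 (SE 0.55, adjusted p = 0.0277 by edgeR). The diets overlapped in the heterozygous control-diet replicate 3, which at 2.27 RPM was below wild-type low protein replicate 2. Val-TAC 12 is counted within the Val-TAC total, for which diet gave 0.03 (SE 0.14, adjusted p = 0.851 by edgeR).

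Sec-type 5 was at 21.9, 8.03 and 4.97 RPM in the wild-type control-diet libraries and at 17.0, 11.9 and 3.18 RPM in the heterozygous ones. The low protein values were 2.19, 2.09 and 6.51 RPM (wild type) and 5.38, 1.60 and 3.85 RPM (heterozygous), a difference of -1.69 (SE 0.49, adjusted p = 0.0413 by edgeR). In all 3 trimmed sequences replicate 1 of each control-diet group had the highest and replicate 3 the lowest value of its group. Leaving out replicates 1 and 2 of both control-diet groups, which removes the highest values and so has to shrink the differences, was chosen after these values were seen and is given as a description. The log2 fold changes were then -0.70 for Sec-type 6, -0.17 for Sec-type 5 and -0.98 for Val-TAC 12, with adjusted p of 0.572, 0.913 and 0.539 by edgeR. All 4 calls were also lost on leaving out any 1 of 7 libraries (replicate 1 of wild type and 1 or 2 of heterozygotes on control diet, replicates 1 and 2 of wild type and 2 and 3 of heterozygotes on low protein diet). Wild-type control-diet replicate 2 ended those of Leu-type 12 and Sec-type 5, and wild-type low protein replicate 3 those of Leu-type 12 and Val-TAC 12. The adjusted p of the lost calls ran from 0.0502 to 0.135 by edgeR, and limma gave 0.0575 to 0.0933. Calls over all 2971 sequences also fell from 353, to 102 without wild-type control-diet replicate 1 and 223 without replicate 2. Leaving out heterozygous control-diet replicate 1 or 2 gave 56 or 160, and wild-type low protein replicate 3 gave 181. Without wild-type low protein replicate 1 or 2, or heterozygous low protein replicate 2, 0 passed. Limma also called 0 of all sequences.

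Trimmed reads as a whole moved with the same libraries. Over the whole table they took 15.7, 8.81 and 4.36% of the reads in the wild-type and 9.54, 7.47 and 4.44% in the heterozygous control-diet libraries, and 2.44 to 4.95% in the 6 low protein libraries. The part of this in the results for trimmed members was not tested. Among the members 14 of the 15 trimmed sequences had a negative diet value over both genotypes, with a median of -0.48 on the log2 scale, beside 92.3% of the 560 trimmed sequences in the table, with a median of -1.38. The other 41 members had a median of 0.05, with 16 negative. The median over all 2971 sequences was -0.01. In the Sec-type family the share of reads that start after the first base was 49.0, 15.3 and 16.1% in the wild-type and 36.9, 33.6 and 11.4% in the heterozygous control-diet libraries, and 12.8 to 23.5% in the low protein libraries. The exact permutation p for diet over both genotypes was 0.200 for this share (adjusted 0.624), and 0.025 for the Val-TAC share (adjusted 0.600).

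Cys-type 3 went against this order, and it is shown because it starts furthest inside the tRNA, 5 bases after Cys-type 1, with its first base in capitals. Cys-type 5 is given with it, with the T of position 8 in capitals, since it alone of this family starts at the first base.
Cys-type 3: Atagctcagtggtagagcatttgactg
Cys-type 5: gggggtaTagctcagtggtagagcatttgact

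Cys-type 3 was at 4.84, 3.81 and 22.5 RPM in the wild-type and 5.37, 4.53 and 32.3 RPM in the heterozygous control-diet libraries, and at 7.82 to 17.7 RPM in the low protein libraries. Replicate 3 of each control-diet group was thus the highest, where Sec-type 5, Sec-type 6 and Val-TAC 12 had the lowest value of that group. The diet value over both genotypes was -0.18 on the log2 scale (adjusted p = 0.901 by edgeR). Cysteine tRNA, whose anticodon GCA RefSeq gives for 56 nuclear genes, gave 53.1 RPM over 5 sequences, and Cys-type 5 took 4.33 RPM of that. Cys-type 2, with T15G, was at 13.0 RPM beside 16.8 RPM for Cys-type 1.

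Leucine-type fragments were the most abundant of these families, with 15 sequences and 434.5 RPM, and 64.2% of the reads were 34 nt. Its main variants are shown with positions 6 and 16 in capitals, since these positions split the family.
Leu-type 1: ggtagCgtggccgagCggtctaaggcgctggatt
Leu-type 2: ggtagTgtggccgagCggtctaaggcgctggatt
Leu-type 4: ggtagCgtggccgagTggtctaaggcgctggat

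Leu-type 1 was at 118.1 RPM, from 67.3 to 157.6 RPM with a median of 118.7 RPM over the 12 libraries, and Leu-type 2 with C6T was close to it at 103.7 RPM. T at position 6 was read in 30.1% of the family, from 27.3 to 37.3% in the libraries, and T at position 16 (C16T) in 17.0%, from 9.68 to 21.0%. No member carried both. Leu-type 12, a 35-nt form with C16T, was higher on low protein diet. The control-diet values were 4.58, 8.46 and 9.94 RPM (wild type) and 5.37, 4.72 and 6.37 RPM (heterozygous). Those of the low protein libraries were 12.7, 10.4 and 14.8 RPM (wild type) and 8.70, 9.02 and 11.1 RPM (heterozygous). Within each genotype the diets did not overlap, and the log2 fold change over both was 0.78 (SE 0.22, 1.72-fold, adjusted p = 0.0365 by edgeR). In the same fit without replicates 1 and 2 of both control-diet groups it was 0.47 (adjusted p = 0.358).

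The other 3 sequences with C16T had diet values of 0.49 (Leu-type 4, adjusted p = 0.122), 0.54 (Leu-type 6, adjusted p = 0.136) and 0.49 (Leu-type 14, adjusted p = 0.269) by edgeR, none of which passed. The share of the family with T at position 16 was 15.3 ± 4.05% in control-diet and 18.6 ± 2.0% in low protein libraries (SD, n = 6 each), with an exact permutation p of 0.120 and an adjusted value of 0.624. For T at position 6 the shares were 32.1 ± 3.46% and 28.4 ± 0.773% (SD, n = 6 each), with an exact permutation p of 0.035 and an adjusted value of 0.600. The family total over both genotypes differed by 0.22 (SE 0.16, adjusted p = 0.517 by edgeR), and the genotypes over both diets by -0.31 (SE 0.16, adjusted p = 0.244).

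The threonine, initiator methionine and alanine types were measured with fewer reads. Thr-type fragments summed to 166.5 RPM over 8 sequences, and their totals ran from 117.9 to 240.1 RPM. Thr-type 1 (30 nt) was at 65.0 RPM and Thr-type 2, 1 base shorter, at 47.1 RPM. Thr-type 7 is shown with the T of position 8 in capitals because it alone starts before the first base, by 2 bases, at 6.29 RPM.
Thr-type 7: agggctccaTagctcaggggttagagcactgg

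Thr-type 6, at 9.09 RPM, carries T4C and C6T, and is the only member with 2 differences in the first 8 bases. No family test for Thr-type passed (adjusted p from 0.541 to 0.874 by edgeR).

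Initiator methionine tRNA places the first amino acid of proteins made in the cytosol. Its fragments summed to 64.5 RPM over 4 sequences, with iMet-type 1 (30 nt) at 23.8 RPM and a 31-nt form, iMet-type 2, at 23.5 RPM. The 35-nt iMet-type 3, at 13.0 RPM, ends in CAT, the methionine anticodon. Totals ran from 32.7 RPM to 108.9 RPM, both in heterozygotes on control diet (108.9, 64.4 and 32.7 RPM), so this group spanned all other libraries. The difference between genotypes over both diets was 0.41 on the log2 scale (SE 0.23, adjusted p = 0.244 by edgeR).

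Ala-type was the rarest, with 2 sequences and 15.9 RPM, from 23 to 112 reads per library. Totals were 19.1, 19.0 and 25.2 RPM in wild type on control diet and 11.4, 16.4 and 13.5 RPM on low protein diet, without overlap. Heterozygous libraries had 20.1, 16 and 10.5 RPM on control diet and 12.8, 11.2 and 15.3 RPM on low protein diet, with overlap. The diet value over both genotypes was -0.45 (SE 0.20, adjusted p = 0.332 by edgeR). It did not pass among 19 families, though it was called without heterozygous control-diet replicate 3, as 1 of 3 families.

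Beside these calls, most comparisons gave none among the members. By edgeR no rare-family sequence passed for diet in wild type, where 2.52% of all sequences did. At an unadjusted p under 0.05 there were 6 members (10.7%), beside 21.8% of all sequences. The smallest p values there belonged to Sec-type 6 (-2.73, adjusted p = 0.0693), Val-TAC 12 (-2.74, adjusted p = 0.0734) and Ser-GCT 3. For diet in heterozygotes 0.101% of all sequences passed, and of the members 0, with 10 (17.9%) at an unadjusted p under 0.05 beside 16.9% of all, led by Leu-type 14 (1.10, adjusted p = 0.248), Leu-type 12 (0.83, adjusted p = 0.260) and Sec-type 5 (-1.64, adjusted p = 0.273). For the genotype on control diet no sequence of the table passed (0%), and 6 members (10.7%) had an unadjusted p under 0.05 beside 4.21% of all. The leading ones were Leu-type 8 (-0.97), Leu-type 14 (-1.14) and Ala-type 1 (-0.83), each with an adjusted p of 0.965 by edgeR.

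For the genotype on low protein diet 0.202% of all sequences passed and 0 members, with 8 (14.3%) at an unadjusted p under 0.05 beside 17.0% of all. Ser-GCT 3, Val-TAC 1 and Ser-GCT 1 led these. For the genotype over both diets 0.101% passed and 0 members, with 15 (26.8%) at an unadjusted p under 0.05 beside 11.3% of all, led by Ser-GCT 3 (-0.94, adjusted p = 0.128), Ser-GCT 2 (-0.89, adjusted p = 0.302) and Val-TAC 1 (0.41, adjusted p = 0.302). For the interaction no sequence of the table passed (0%), and 2 members (3.57%) had an unadjusted p under 0.05 beside 9.83% of all, Leu-type 14 (1.22, adjusted p = 0.476) and Leu-type 8 (0.93, adjusted p = 0.504), followed by Leu-type 10 (0.77, adjusted p = 0.522). DESeq2 gave 3 members (5.36%, beside 11% of all sequences) for diet in wild type, 1 (1.79%, beside 2.49%) for the genotype on low protein diet, 2 (3.57%, beside 1.48%) for the genotype over both diets and 0 for the other 3 of these comparisons. Limma gave 0 in all of them. Of the family totals, 0 of 19 (0%) passed for diet in either genotype, diet over both, the genotype on control diet and the interaction, by edgeR and, for the 8 rare families, by DESeq2 and limma. At an unadjusted p under 0.05 by edgeR these gave 1 rare family for diet in wild type, 1 for diet over both genotypes and 0 for the other 3. Over all 19 families there were 2 for diet in wild type, 2 for diet in heterozygotes and 2 for diet over both genotypes. For the genotype on control diet and the interaction there were 0.

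The sum of the 8 families was 1482 ± 189.1 RPM in wild type on control diet, 1578 ± 151.5 RPM in wild type on low protein diet, 1403 ± 201 RPM in heterozygotes on control diet and 1454 ± 55.6 RPM in heterozygotes on low protein diet (SD, n = 3 each). Single libraries ran from 1247 to 1747 RPM, and all 4 groups overlapped. In bulk libraries scaled to their totals, fewer fragments per sperm, fewer sperm with the fragment and more of the other fragments cannot be told apart.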

How the data were processed

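The authors deposited whole-number read counts for 2971 tRNA fragment sequences and, beside them, normalised values in RPM. Small RNA from sperm was sequenced at 36 bp, per the labels' protocols, and the build was mm10, per the submitters' processing notes. Aligner and counting program are not stated in these sources. Dividing deposited counts by RPM gave the library totals, 2198744 to 6870039 reads. The deposited length of each sequence was checked against its bases.

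Families were built with edlib 1.3.9.post1 within 2 edits. Starts were found by comparing the first 14 bases with the most abundant sequence without gaps. Counts of all sequences, or sums per family, were tested with edgeR 4.0.16 quasi-likelihood (R 4.3.3) with 1 mean for each of the 4 groups (12 libraries), library sizes set to the authors' totals, a minimum mean of 1 RPM (0 sequences removed), two-sided, with Benjamini-Hochberg adjustment and a threshold of 0.05. Exact permutation tests over libraries were two-sided, within diets or genotypes for pooled comparisons. Alternatives were TMM, DESeq2 1.42.0, limma 3.58.1 on log2(RPM + 1), other filters and edit distances, a replicate block and leaving out libraries. Scripts were tested on simulated data. Reads carry no molecular identifiers, so intervals from 3 counts cover counting error only. Deviations from the group means were correlated between same-numbered libraries of the 2 control-diet groups (r 0.547, 0.143 and 0.522). The labels state no pairing. Differently numbered libraries were not compared, so a pairing by number was not tested. In the other pairs of groups r ran from -0.403 to 0.584. The lowest was for replicate 1 of the 2 low protein groups. The highest was for replicate 1 of wild type on control diet with that of heterozygotes on low protein diet. Named were all families, all Val-TAC and Ser-GCT sequences, the most abundant of each other family, every called member and, where none was called, the 3 members of smallest p. Other sequences were named for their start or variant after their values were seen. Members and lists were chosen with earlier results of these data known.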

Additional observations from a re-analysis of the deposited data

How the results depend on the processing

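For family totals, DESeq2 called 3 rare families for the genotype on low protein diet and 3 for the genotype over both diets, and limma 0 and 0, against 1 and 1. In the main fit 2 of all 19 families were called in each of these comparisons. Where no count over all 19 is given in this section, counts of rare families do not show whether they were called more often than the others. Only the groups of the contrast gave 2 on low protein diet. Among sequences, DESeq2 called 3 members for diet in wild type, 1 for the genotype on low protein diet and 2 over both diets, each against 0, beside 11, 2.49 and 1.48% of all sequences. For diet over both genotypes limma gave 0 against 4, and it called 0 of all 2971 sequences there, against 353. A minimum of 10 RPM also gave 0, by its construction, since all 4 called members have lower means and were not tested. Only the groups of the contrast gave 4 (7.14%) for the genotype on low protein diet, beside 12.5% of all. TMM factors kept the number of families called at 1 in both genotype comparisons, with Val-TAC in place of Ser-GCT. Other filters, edit distances of at most 1 or 3 and the remaining alternatives named for the comparisons left each count within 1.5 times. For all but the 10 RPM minimum the cause was not tested.

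Leaving out 1 library at a time gave 0 to 1 rare families for diet in wild type, diet over both genotypes, the genotype on control diet and the genotype on low protein diet, and 0 to 3 for the genotype over both diets. For sequences it gave 0 to 5 for diet in wild type, 0 to 9 for diet over both genotypes, 0 to 1 for the genotype on low protein diet and 0 to 2 for the genotype over both diets. The 5 (8.93%) came without wild-type control-diet replicate 3, with 19.4% of all sequences called. The 9 (16.1%) came without that library or without heterozygous control-diet replicate 3, with 24.0 and 26.9% of all called. Dropping replicate 1 of wild type on control diet gave 1 on low protein diet and 2 over both diets, beside 0.740 and 0.539% of all. Groups then hold 2 libraries in a fit that pools the spread.

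Further alternatives were chosen after seeing the data. Omitting replicates 1 and 2 of both control-diet groups leaves single libraries there, assumed to vary like the other groups. Rare families called were then 1 for diet in heterozygotes, 1 for diet over both genotypes, 3 for the genotype on control diet, 2 on low protein diet and 4 over both diets, and sequences called were 2 for diet in heterozygotes, 2 for diet over both genotypes, 4 for the genotype on low protein diet and 1 over both diets, or 3.57, 3.57, 7.14 and 1.79% of members beside 2.39, 1.82, 12.4 and 5.02% of all. A replicate block within the groups of the contrast gave 2 rare families and 2 sequences for the genotype on low protein diet, and 1 sequence for diet in heterozygotes, beside 5 of 19 families, 3.26% and 8.75% of all sequences. The replicate block over 12 libraries gave 4 sequences for diet over both genotypes and 1 family in each genotype comparison that had 1, and it changed no other call. Families with few reads, such as Ala-type with 23 to 112 per library, limit what differences could be detected.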
